A study of Mus musculus with 18 samples.

Results

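The 10 heat shock chaperone genes Hspa1a, Hspa1b, Hspa8, Hsp90aa1, Hsp90ab1, Hspb1, Hsph1, Dnajb1, Hspe1 and Hspd1 were followed across 18 RNA-seq libraries of mouse cortical endothelial cells. They were chosen by symbol from the 21638 genes of the deposited table. The symbols were selected on earlier results of the same libraries, in particular the counts of occluded against sham mice over both sides of the brain. The summed counts of Hspa1a and Hspa1b were followed as an 11th value, called the Hspa1 pair below. All 10 genes were among the 17094 genes that passed the filter on low counts (3 or more libraries with 10 or more counts).

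The cells were sorted from adult cortex on CD31, an endothelial surface marker, with cells bearing CD41 or CD45 left out, and were taken on day 7. In MCAO the middle cerebral artery is blocked by surgery to model stroke, and ipsilateral means the occluded side. Sham mice and MCAO mice, both labelled WT, gave ipsilateral and contralateral libraries. Hdac2 ECKO mice (Hdac2lox/lox:Cdh5CreERT2) and Ezh2 ECKO mice (Ezh2lox/lox:Cdh5CreERT2) also had MCAO and gave ipsilateral libraries only. Every group was labelled with tamoxifen at 75 mg per kg, which the study's design text gives as 5 doses from day 0 to day 4. Each of the 6 groups had 3 libraries. The recombinase in the deletion mice is driven by Cdh5, an endothelial gene, and the labels give no Cre or floxed allele for the sham and MCAO mice, so Cre and genotype cannot be told apart. The labels used here give no strain and no age beyond adult, and no sham library with either deletion was analysed here. The labels do not say that the 3 libraries of a group came from separate mice, so the p-values measure the spread between these libraries, which may be technical.

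Heat shock proteins keep other proteins folded. Heat shock factor 1 is held inactive in resting cells and, when unfolded proteins accumulate, binds repeats of GAA and TTC units in the promoters of chaperone genes and raises their transcription. Hspa1a and Hspa1b encode the stress-inducible Hsp70 proteins, whereas Hspa8 encodes the constitutive Hsp70. Hsp90aa1 and Hsp90ab1 encode the inducible and the constitutive cytosolic Hsp90. Hspb1 encodes a small heat shock protein that binds unfolded proteins and actin, Hsph1 an Hsp110 that recharges Hsp70, and Dnajb1 a J-domain partner of Hsp70. Hspd1 and Hspe1 encode the chaperonin of the mitochondrial matrix and its lid. In brain vessels after ischaemia, chaperones of this group are known as markers of cell stress.

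Hspa1a and Hspa1b are intronless neighbours on chromosome 17, and their sequences show why the counts of the pair are also given as a sum. On GRCm38, Hspa1a lies at chr17:34969190-34972156 and Hspa1b at chr17:34956436-34959238, both on the minus strand. Their coding sequences were 99.43% identical, with 11 differences, so a counting tool can split reads between them and single-gene values of the pair are uncertain. The 150 bases before their transcription starts, from RefSeq windows on GRCm38.p6, differed at 1 position, and the window of Hspa1a (chr17:34972157-34972306, minus strand) is printed for both. Capitals mark a head-to-head pair of heat shock units, 104 bases before the start.

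Hspa1a: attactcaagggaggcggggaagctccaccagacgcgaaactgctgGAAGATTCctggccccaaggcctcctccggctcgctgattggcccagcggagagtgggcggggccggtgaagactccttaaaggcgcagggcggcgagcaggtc

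Hspb1 (chr5:135887919-135889563, plus strand) held 2 such pairs, which begin 117 and 97 bases before its start. The stretch around them is chr5:135887782-135887849. Hspe1 (chr1:55088132-55091307, plus strand) and Hspd1 (chr1:55077835-55088243, minus strand) point away from each other, and their annotated ends share 112 bases. A stretch at chr1:55088053-55088082 carries 4 units in a row and lies in the promoter window of Hspe1 and in 1 of 2 windows of Hspd1. The other Hspd1 window, at the annotated start of the gene, held no match. The stretch lies inside the annotated Hspd1 gene, and before the start only of the window that holds it. These 2 stretches are shown because they carry the densest matches before a start.

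Hspb1: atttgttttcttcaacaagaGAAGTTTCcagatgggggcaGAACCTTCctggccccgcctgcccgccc

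Hspe1: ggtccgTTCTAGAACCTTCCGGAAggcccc

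RefSeq promoter windows (250 bases before to 50 after a start) were found for 7 of the 10 genes, in 10 windows, and not for Hspa8, Hsp90aa1 and Hsp90ab1. The 2-unit letters GAANNTTC or TTCNNGAA, which read the same on both strands, were in windows of 6 of the 7 genes, Dnajb1 being the exception. They were in 15.06% of all 32851 windows. The 3-unit letters GAANNTTCNNGAA or TTCNNGAANNTTC, which contain the 2-unit letters and were searched on both strands, were in windows of Hsph1, Hspe1 and Hspd1 and in 0.603% of all windows. The 3-unit match of Hsph1 lay after the start in both of its windows, and that of Hspd1 was in 1 of its 2 windows. The counts of members are per gene, whereas the shares are per window. A match describes the letters only.

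Total counts ran from 25791401 to 57576255 per library, and the 10 genes took between 0.142% and 0.894% of them. The sum of 10 endothelial markers lay between 7548 and 10760 CPM (counts per 1000000 counts of the library, scaled by the trimmed mean of M-values, TMM) in all libraries. Of the other cells the sort could hold, red cell genes reached 297900 CPM in an Hdac2 ECKO library. Oligodendrocyte lineage genes reached 210.9 CPM in an MCAO contralateral library. Pericyte and smooth muscle genes reached 196.3 CPM in a sham contralateral library, and microglial genes did not exceed 93.6 CPM. Hdac2 had its lowest group mean in Hdac2 ECKO, at 76.8 ± 16.8 CPM (SD, n = 3). It overlapped there with MCAO ipsilateral, at 82.9 ± 14.0 CPM. Its range was 57.6 to 87.9 CPM in Hdac2 ECKO and 118 to 156 CPM in Ezh2 ECKO, without overlap. Ezh2 was not lower in its own deletion, at 13.4 ± 5.76 CPM in Ezh2 ECKO and 6.44 ± 1.77 CPM in MCAO ipsilateral. Counts per gene do not show single exons, so deletion was not checked, and the deletion groups are named by their labels. 2 libraries stood apart in 1466 receptor genes of smell and pheromones, which endothelium is not known to use. MCAO contralateral replicate 1 and Ezh2 ECKO replicate 2 held 1889 and 2083 CPM in them, against at most 716 CPM elsewhere. These receptor values are CPM of unscaled library totals, without TMM.

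After occlusion the Hspa1 pair was high on both sides of the brain. The pair was at 34.5, 25.9 and 37.8 CPM in the sham ipsilateral libraries (replicates 1, 2 and 3) and at 262, 332 and 70.5 CPM in the MCAO ipsilateral libraries. On the contralateral side it was at 23.0, 31.6 and 28.7 CPM in sham and 193, 382 and 40.3 CPM in MCAO. The groups did not overlap on either side, but MCAO replicate 3 lay nearest to sham on both. The log2 fold change was 2.76 ± 0.62 (SE) ipsilaterally and 2.89 ± 0.62 contralaterally, and 2.82 ± 0.44 over both sides. These values are described without a test because this contrast chose the genes. The SEs over both sides treat the sides as independent, though the labels do not say whether they came from the same mice. Marker sums of microglia, of pericytes and smooth muscle, and of neurons did not overlap between the ipsilateral groups either. Those of astrocytes, other leukocytes, the oligodendrocyte lineage and red cells overlapped. The neuronal genes summed to between 2.02 and 3.38 CPM in sham and 0.684 and 2.01 CPM in MCAO. The microglial genes summed to between 34.2 and 43.7 CPM in sham and 83.6 and 87.9 CPM in MCAO, and the pericyte and smooth muscle genes to between 103 and 158 CPM in sham and 36.8 and 102 CPM in MCAO. Over both sides, 8 of 8 pericyte and smooth muscle genes had a negative log2 fold change, with a median of -1.19. Their part in the chaperone levels was not tested. In sorted cells measured in bulk, more cells with a transcript and more transcript per cell cannot be told apart.

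Within the pair, Hspa1a rose from a mean of 17.1 CPM in sham ipsilateral to 91.3 CPM in MCAO ipsilateral, and Hspa1b from 15.7 to 130 CPM. Hspa1b made up 51.6% to 60.3% of the pair in the MCAO ipsilateral libraries. Its share ran from 26.5% to 82.7% over all 18 libraries, the highest being in MCAO contralateral replicate 1.

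**Figure D1:**
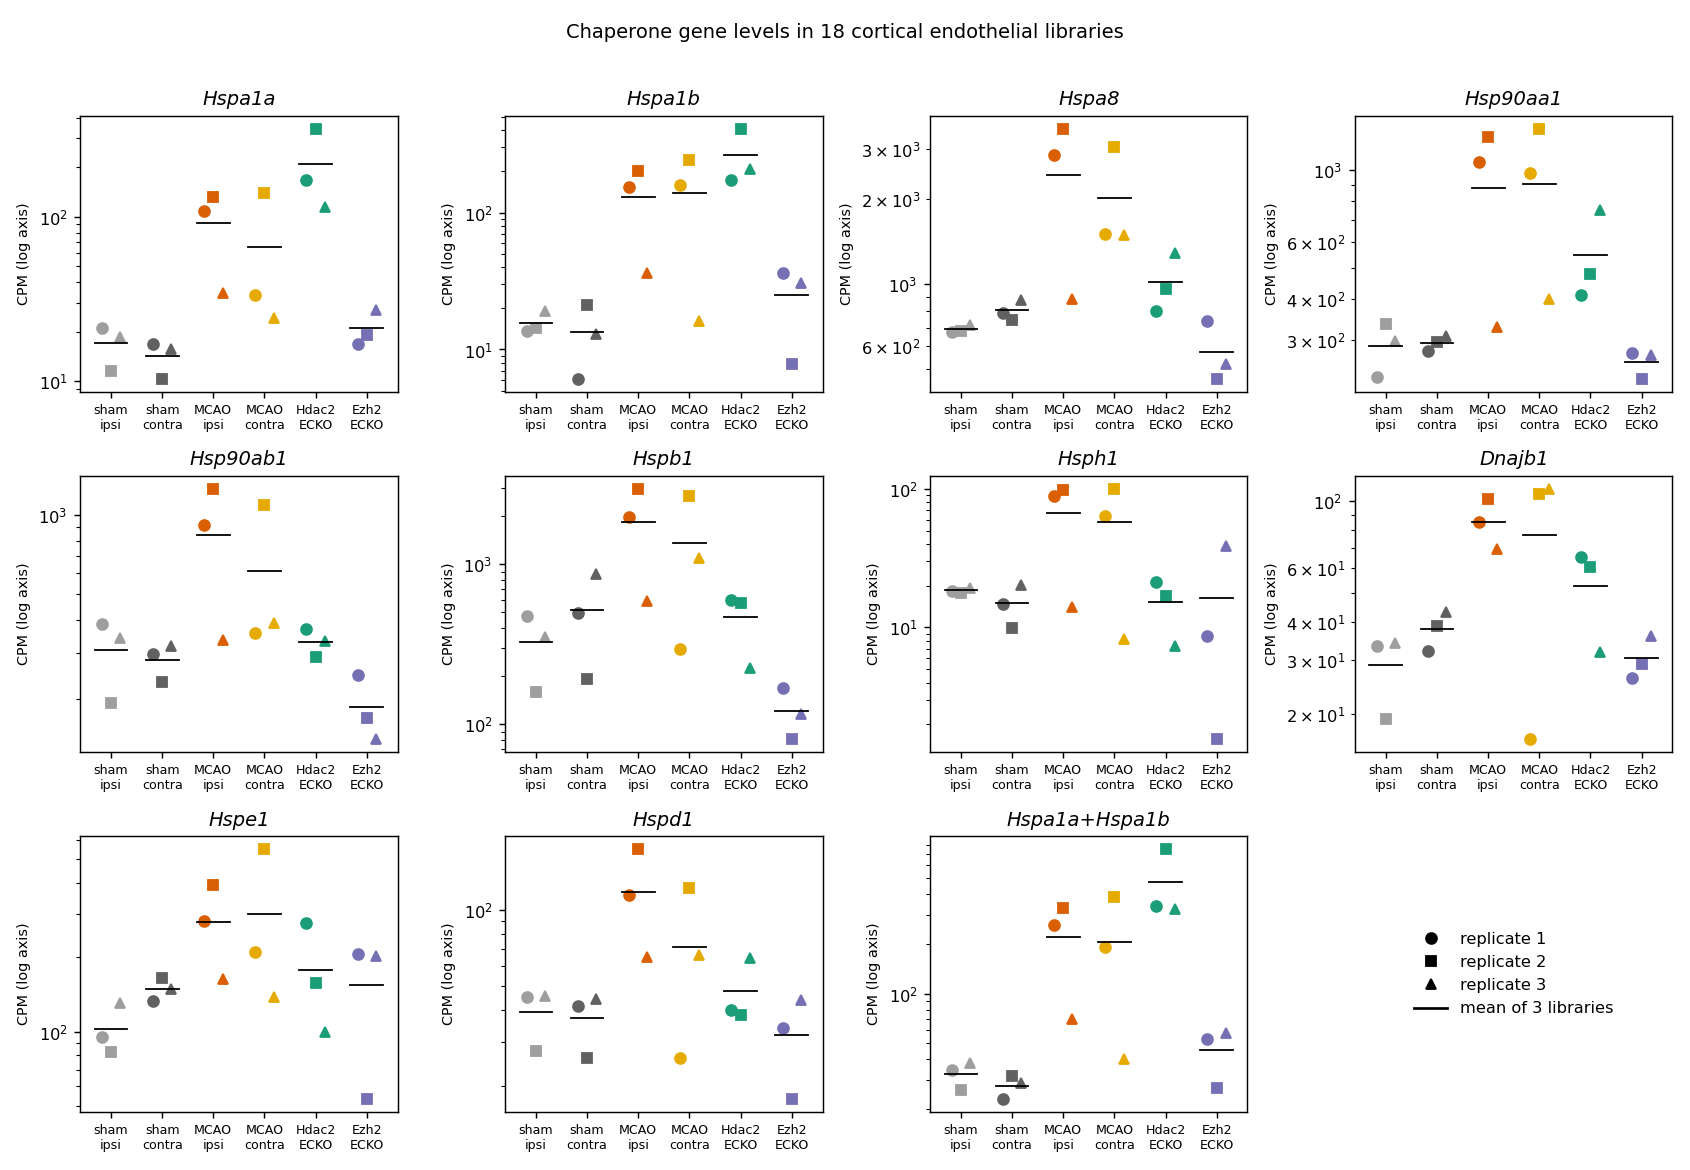
Levels of the 10 chaperone genes and of the summed Hspa1 pair, in CPM on a log axis, by group; each point is a library, its shape gives the replicate number, and the line is the mean of 3 libraries. MCAO ipsilateral replicate 3 lies below replicates 1 and 2 in every panel, and the group mean of the pair is highest in Hdac2 ECKO.

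In MCAO ipsilateral, the constitutive Hsp70 and both Hsp90 genes were highest in replicate 2 and lowest in replicate 3. Hspa8 was at 674, 679 and 715 CPM in sham ipsilateral and 2861, 3545 and 881 CPM in MCAO ipsilateral, without overlap. On the opposite side Hspa8 was at 789, 746 and 879.6 CPM in sham and 1496, 3063 and 1483 CPM in MCAO, also without overlap. Hsp90aa1 was at 231, 335 and 296 CPM in sham ipsilateral and 1061, 1260 and 328 CPM in MCAO ipsilateral. For this inducible Hsp90 the lowest occluded library fell within the sham range. Hsp90ab1 was at 386, 194 and 340 CPM in sham ipsilateral and 918, 1260 and 336 CPM in MCAO ipsilateral, again overlapping through replicate 3. The log2 fold changes over both sides were 1.57 ± 0.29 for Hspa8, 1.62 ± 0.31 for Hsp90aa1 and 1.29 ± 0.32 for Hsp90ab1.

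Hspb1, the small heat shock gene, was at 476, 159 and 349 CPM in sham ipsilateral and 1986, 2961 and 588 CPM in MCAO ipsilateral, and the groups did not overlap. Contralaterally the MCAO libraries held 295, 2683 and 1097 CPM and overlapped with sham (193 to 867 CPM). Per kilobase of gene model Hspb1 was the most abundant of the 10 in MCAO ipsilateral, at a level of 1789 ± 1157 CPM per kb (SD, n = 3). Hspa8 followed at a level of 565 ± 322 CPM per kb and Hsph1 was the lowest at 9.24 ± 6.35 CPM per kb.

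The partner genes of Hsp70 were less abundant. Hsph1 was at 18.4, 17.7 and 19.3 CPM in sham ipsilateral and 88.7, 98.6 and 14.2 CPM in MCAO ipsilateral, where replicate 3 was below all 3 sham libraries. Dnajb1 was at 33.4, 19.3 and 34.2 CPM in sham ipsilateral and 84.9, 102 and 69.7 CPM in MCAO ipsilateral, without overlap. The mitochondrial lid gene Hspe1 was at 94.7, 82.5 and 130 CPM in sham ipsilateral and 281, 392 and 164 CPM in MCAO ipsilateral. Hspd1 was at 45.1, 27.5 and 45.7 CPM and 115, 174 and 64.9 CPM in the same groups. Neither chaperonin gene overlapped between these ipsilateral groups. Because MCAO against sham chose the genes, nothing is read from which of them overlapped between these groups.

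Over both sides, all 10 genes had a positive log2 fold change in MCAO against sham, with a median of 1.60 against 0.06 over all genes tested. Of the 10, 4 (Hspa1a, Hspa1b, Hspa8 and Hsp90aa1) were called higher by edgeR's quasi-likelihood test at a Benjamini-Hochberg adjusted p under 0.05, where 0.152% of all genes were called. Hspa1a and Hspa8 did not overlap between all 6 MCAO and all 6 sham libraries, as did 0.421% of genes in the direction of MCAO. This contrast chose the genes, so nothing is read from either count. With each side alone edgeR called 0 of 17094 genes (0%), with 1210 genes at an unadjusted p under 0.05 ipsilaterally and 754 contralaterally. DESeq2 called 69 and 26 genes there, and limma voom with sample weights called 1273 and 7.

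MCAO replicate 2 held the highest ipsilateral level of 10 of the 10 genes and the highest contralateral level of 9. MCAO replicate 3 held the lowest ipsilateral level of all 10 and the lowest contralateral level of 6. The other 4 contralateral minima were in replicate 1, a library with high counts in smell and pheromone receptor genes. Among the Ezh2 ECKO libraries, replicate 2, the other such library, was the lowest in 7 of the 10 genes. The part of the background in these levels was not tested.

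**Figure D2:**
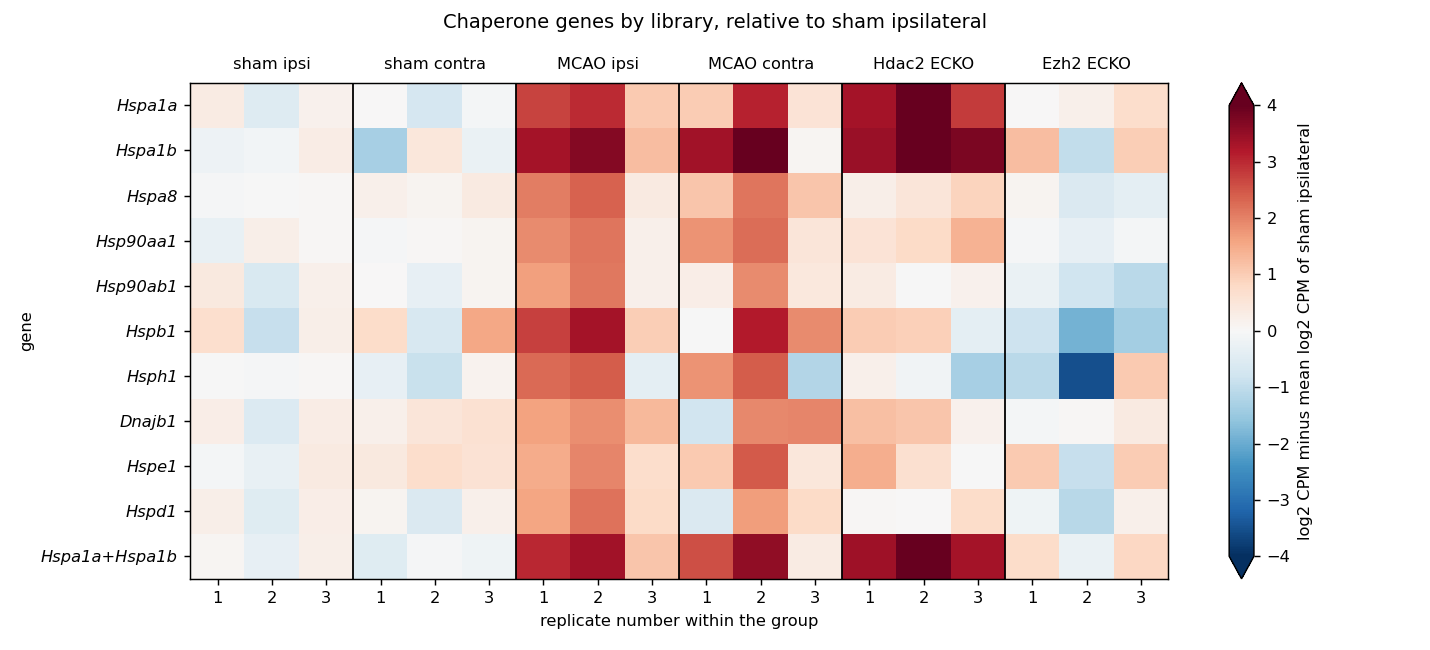
Heat map of log2 CPM minus the mean log2 CPM of the sham ipsilateral libraries; rows are the 10 genes and the Hspa1 pair, columns the 18 libraries in 6 groups of 3, and colours are capped at the ends of the scale. Hspa1a is 2.70, 2.99 and 1.04 above sham in the MCAO ipsilateral libraries and 3.33, 4.37 and 2.79 above it in Hdac2 ECKO.

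With the group means removed, the libraries of a group still moved together in several of the genes. As a description over 18 libraries that share depth and scaling, Pearson's r of the residual log2 CPM was 0.86 between Hspa8 and Hsp90aa1, 0.85 between Hspa8 and Hsp90ab1 and 0.82 between Hsp90ab1 and Hspb1. Hsph1 and Hspe1 had an r of 0.83. Dnajb1 was apart from some of them, with an r of 0.02 to Hsph1 and -0.17 to Hsp90aa1. Hspa1a and Hspa1b, which may exchange reads, had an r of 0.62.

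The occluded and opposite sides of MCAO mice were then compared, to ask whether the chaperone level followed the side of the lesion. The Hspa1 pair was at 222 ± 136 CPM ipsilaterally and 205 ± 171 CPM contralaterally (SD, n = 3 each), and all 10 genes overlapped. The log2 fold change of the pair was 0.11 (95% interval -1.02 to 1.24), that of Hspa8 0.27 (-0.51 to 1.06) and that of Hspd1, the largest of the 10, 0.73 (-0.22 to 1.68). None of the 10 genes was called by edgeR, and none had an unadjusted p under 0.05, against 0% and 3.08% of all genes. DESeq2 and limma voom also called 0 of the 10. The intervals allow differences of more than 2 times in either direction for the pair.

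Between the sides of sham mice, the pair was at 32.7 ± 6.14 CPM and 27.7 ± 4.39 CPM. The log2 fold change was 0.24 (95% interval -0.89 to 1.37). Again edgeR called 0 of the 10 genes (0% of all genes), 0 had an unadjusted p under 0.05 (1.85% of all genes), and DESeq2 and limma voom called 0. Hspa8 had a log2 fold change of -0.22 ± 0.40 (SE). It was lower ipsilaterally without overlap (674 to 715 against 746 to 879.6 CPM). Hspe1 was too (82.5 to 130 against 133 to 165 CPM), and the other chaperone genes overlapped. With unscaled library totals Hspa8 was instead higher ipsilaterally without overlap (820.5 to 864 against 753 to 763 CPM). On those totals Hspe1 overlapped (105 to 150 against 129 to 166 CPM). Both separations thus depended on the scaling, and nothing is read from them.

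The 2 deletion groups had the same occlusion and the same side, so their direct comparison asks whether chaperone levels depended on which gene was labelled as deleted. Its fold changes set only these 2 groups against each other. Its scaling, spread and p-values came from the fit of all 18 libraries. That fit includes the sham and MCAO libraries whose contrast chose the genes. Hspa1a was at 167, 343 and 114 CPM in Hdac2 ECKO and 16.9, 19.0 and 26.9 CPM in Ezh2 ECKO. Hspa1b was at 172, 410.4 and 209 CPM and 36.4, 7.88 and 30.6 CPM in the same groups. The pair was thus at 339, 753 and 324 CPM against 53.3, 26.8 and 57.5 CPM, and every Hdac2 ECKO library was above every Ezh2 ECKO library.

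The log2 fold change of Hspa1a in Hdac2 ECKO against Ezh2 ECKO was 3.31 ± 0.62 (SE, 9.95-fold), with an adjusted p of 0.030 by edgeR's quasi-likelihood test. That of the pair was 3.36 ± 0.63 (10.3-fold, adjusted p = 0.0306). Hspa1b had a similar size, 3.40 ± 0.77, and did not pass (adjusted p = 0.0863). Hspa1a was the 1 gene called among the 10, where 0.123% of all genes were called. Relative to the median of all genes, which was -0.15 in this comparison and -0.26 with DESeq2's size factors (RLE), the pair stood 3.51 higher in Hdac2 ECKO.

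The call of the pair was close to the threshold. Without Hdac2 ECKO replicate 1 its adjusted p by edgeR was 0.0691, without Hdac2 ECKO replicate 2 it was 0.127, without Ezh2 ECKO replicate 2 it was 0.124 and without Ezh2 ECKO replicate 3 it was 0.135. Hspa1a also lost its call without Ezh2 ECKO replicate 1, at an adjusted p of 0.0588. The log2 fold change of the pair stayed between 2.79 and 3.56 when any 1 of the 6 libraries was left out. Limma voom gave 3.43 with an adjusted p of 0.145, and over all alternatives the adjusted p ran from 4.1e-05 to 0.145.

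The other 8 genes were not called between the deletions. Hspb1 was at 597, 572 and 226 CPM in Hdac2 ECKO and 168, 80.8 and 115 CPM in Ezh2 ECKO, a log2 fold change of 1.94 ± 0.68 (adjusted p = 0.282 by edgeR). Hsp90aa1 was at 413, 479.7 and 751 CPM against 273, 227 and 269.6 CPM (1.10 ± 0.43, adjusted p = 0.332 by edgeR). Hspa8 was at 804, 961 and 1290 CPM against 736, 459.9 and 522 CPM (0.83 ± 0.40, adjusted p = 0.452 by edgeR). Hsp90ab1 stood at 0.83 ± 0.45. These 4 genes and both Hspa1 genes, 6 of 10, were higher in Hdac2 ECKO without overlap, against 6.87% of all genes. With unscaled library totals, 3 of 10 (Hspa1a, Hspa1b and Hspb1) did not overlap, against 3.6% of all genes, and Hspa8, Hsp90aa1 and Hsp90ab1 overlapped. By unadjusted p under 0.05, 4 of 10 passed, against 11.2% of all genes.

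The remaining 4 genes overlapped between the deletions. Dnajb1 and Hspd1 had log2 fold changes of 0.78 ± 0.48 and 0.58 ± 0.48. Hspe1, at 0.20, and Hsph1, at -0.11, changed sign when single libraries were left out. The median of the 10 genes was 0.83, against -0.15 for all genes tested.

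Red cell genes and immediate early genes differed between the same libraries. The 7 red cell genes summed to between 49330 and 297900 CPM in Hdac2 ECKO and between 71.0 and 671 CPM in Ezh2 ECKO. Of the 7, 5 were called higher in Hdac2 ECKO, against 0.123% of all genes called. The 22 immediate early genes, which respond within minutes to stimulation and also to cell dissociation, summed to between 5638 and 8095 CPM in Hdac2 ECKO, 3479 and 5576 CPM in Ezh2 ECKO, and 3409 and 4360 CPM in MCAO ipsilateral. Their part in the Hspa1 difference was not tested. Receptor genes of smell and pheromones summed to 198 to 639 CPM in Hdac2 ECKO and 268 to 2083 CPM in Ezh2 ECKO. Both ranges are on unscaled library totals. With this receptor level as a covariate in edgeR the pair had an adjusted p of 0.0309. Without the 2 libraries of highest background its adjusted p by edgeR was 0.057.

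**Figure D3:**
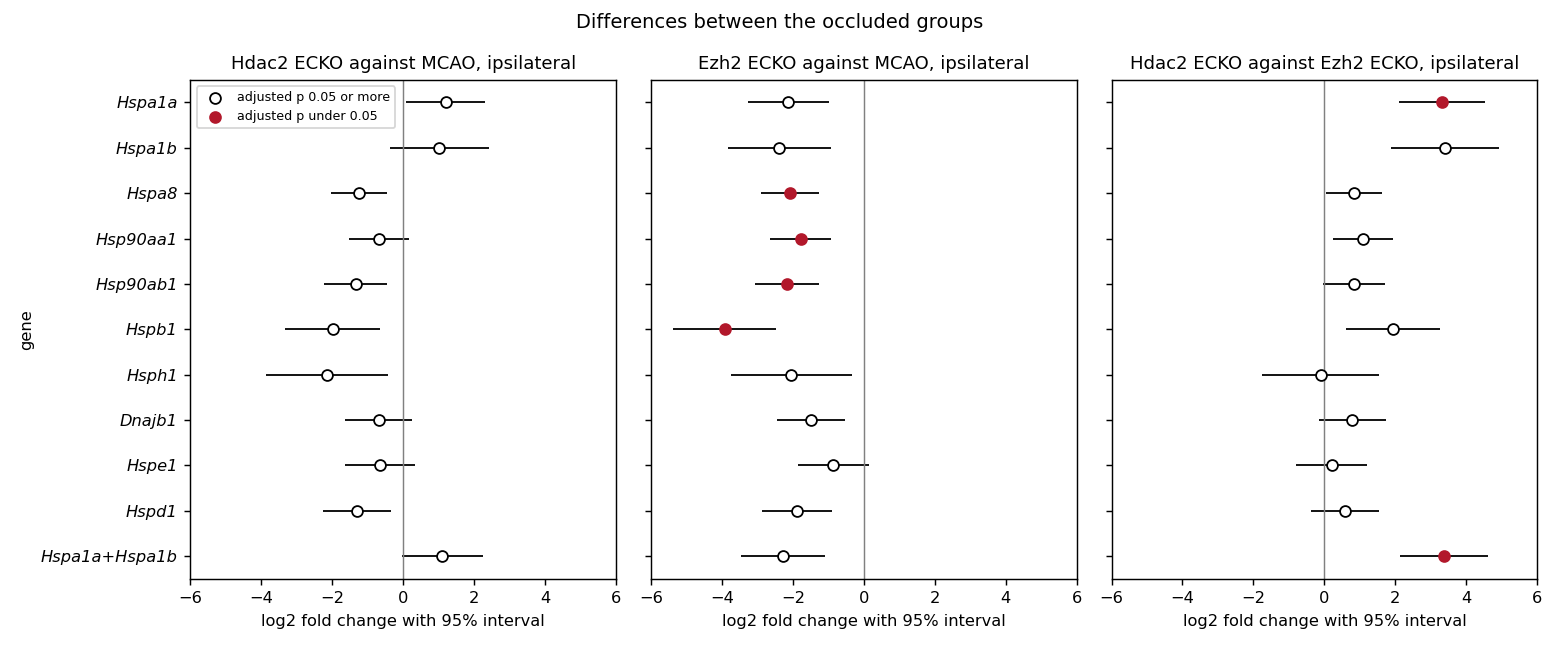
Log2 fold change of each gene and of the Hspa1 pair with its 95% interval in 3 comparisons of occluded ipsilateral groups (3 libraries each); filled points have an adjusted p under 0.05 by edgeR. In the middle panel all 11 points are below 0, and in the left panel Hspa1a, Hspa1b and their sum are to the right of 0 and the other 8 genes to the left.

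Hdac2 ECKO was next set against MCAO ipsilateral of WT mice. This comparison, and the one of Ezh2 ECKO that follows, share the 3 MCAO ipsilateral libraries, which were among those whose high values chose the genes. Such a choice favours lower values in whatever is set against them. The Hspa1 pair was at 324 to 753 CPM in Hdac2 ECKO and 70.5 to 332 CPM in MCAO ipsilateral, overlapping by the range between 324 and 332 CPM. The log2 fold change was 1.09 (95% interval -0.05 to 2.23), with an adjusted p of 0.556 by edgeR.

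The other 8 genes had negative log2 fold changes in Hdac2 ECKO against MCAO ipsilateral. Hspa8 was at -1.25 ± 0.41, Hsp90ab1 at -1.35 ± 0.45, Hspb1 at -1.99 ± 0.68, Hsph1 at -2.15 ± 0.87 and Hspd1 at -1.31 ± 0.49, each with an unadjusted p under 0.05 and an adjusted p over 0.39 by edgeR. Hsp90aa1 (-0.69), Dnajb1 (-0.70) and Hspe1 (-0.65) had intervals that contained 0. Dnajb1 and Hspd1, 2 of the 10, were lower without overlap (10.3% of all genes). With unscaled library totals these were Hspb1, Hsph1 and Dnajb1, 3 of 10, against 16% of all genes.

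None of the 10 was called in this comparison, against 0.0117% of all genes. By unadjusted p under 0.05, 6 of 10 passed, 1 higher (Hspa1a) and 5 lower, against 9.85% of all genes. DESeq2 and limma voom also called 0 of the 10.

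Between Hdac2 ECKO and sham ipsilateral, both Hspa1 genes had larger log2 fold changes than the other 8. The sham libraries are among those whose low values chose the genes, which favours higher values in whatever is set against them, so passes here and in Ezh2 ECKO against sham are not independent evidence. The pair had a log2 fold change of 3.85 ± 0.65 (14.4-fold), with no overlap between 25.9 to 37.8 CPM in sham and 324 to 753 CPM in Hdac2 ECKO. The adjusted p by edgeR was 0.0746, above the threshold, where 0 of 10 chaperone genes and 0% of all genes were called. Hspa1a, Hspa1b and Hsp90aa1, 3 of 10, had an unadjusted p under 0.05, against 7.14% of all genes. DESeq2 and limma voom each called 2 of the 10 genes here, and the pair passed by DESeq2 (adjusted p = 1.376e-06) and by limma voom (adjusted p = 0.002498). It passed in 8 of 15 alternatives and did not with a replicate block (adjusted p = 0.223 by edgeR). Nor did it pass when any single library of these groups was left out. The highest adjusted p by edgeR was 0.793, without sham ipsilateral replicate 1. The passes include those without the MCAO libraries numbered 3 and without the 2 libraries of highest background, none of which belongs to these groups. Hspa8 was at 0.56 ± 0.40, Hsp90ab1 at 0.11 ± 0.44, Hspb1 at 0.50 ± 0.66 and Hsph1 at -0.29 ± 0.84. The last of these and Hsp90ab1 changed sign when single libraries were left out.

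The inducible pair was also set against the constitutive Hspa8 within each library. The MCAO ipsilateral libraries held 9.17, 9.37 and 8.01 counts of the pair per 100 counts of Hspa8, and the sham ipsilateral libraries 5.12, 3.82 and 5.29. In Hdac2 ECKO there were 42.2, 78.5 and 25.1, above all 15 other libraries. In Ezh2 ECKO there were 7.25, 5.84 and 11.0, and the MCAO contralateral libraries held 12.9, 12.5 and 2.72. This ratio within a library does not depend on the scaling.

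The log2 ratio of the pair to Hspa8 was -1.20 ± 0.82 (SD, n = 3) in Hdac2 ECKO, -3.50 ± 0.12 in MCAO ipsilateral and -3.69 ± 0.47 in Ezh2 ECKO. The differences of 2.31 and 2.49 each had an exact two-sided permutation p of 0.1, the smallest that 3 against 3 libraries can give (adjusted p = 0.1 over 3 comparisons). The third comparison, with sham ipsilateral at -4.41 ± 0.26, gave the same exact permutation p. These groups were separated without overlap, and the design cannot reach a p under 0.05, so nothing is read from these p-values. The MCAO and sham libraries took part in the choice of these genes, so the comparisons with them are not independent evidence.

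**Figure D4:**
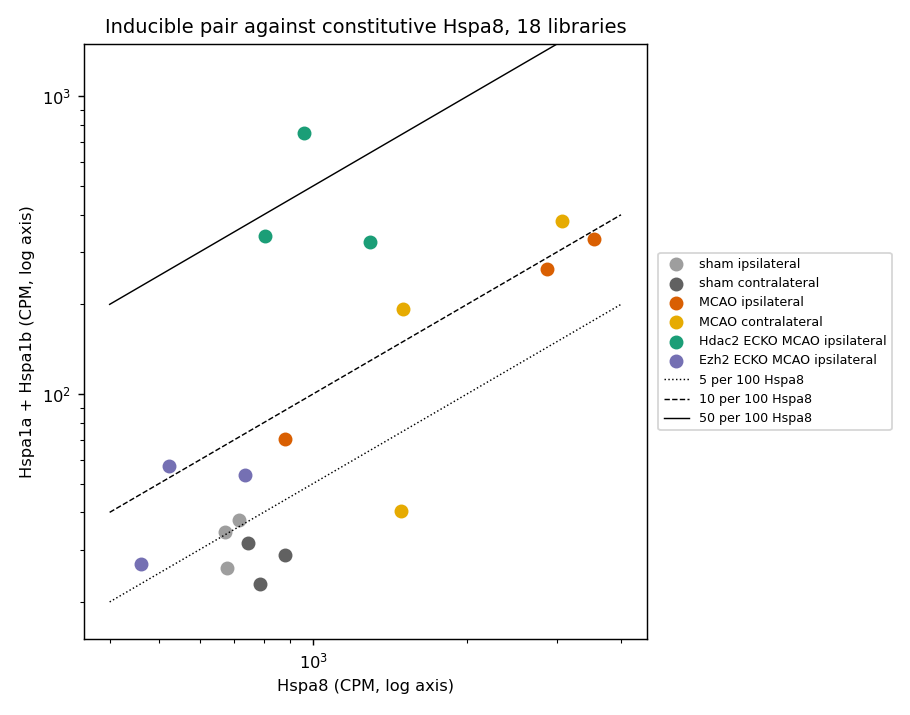
Summed Hspa1a and Hspa1b against Hspa8 in each of the 18 libraries, in CPM on log axes; colours give the group and the 3 lines mark 5, 10 and 50 counts of the pair per 100 of Hspa8. The Hdac2 ECKO libraries lie at 25.1 to 78.5 per 100, above all other libraries.

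Ezh2 ECKO had lower levels of 4 of the 10 genes than MCAO ipsilateral, a comparison in which the choice of the genes favours lower values. Hspb1 was at 168, 80.8 and 115 CPM against 1986, 2961 and 588 CPM, a log2 fold change of -3.93 ± 0.74 (15.2-fold lower, adjusted p = 0.0248 by edgeR). Hsp90ab1 was at 247, 169.9 and 141 CPM against 918, 1260 and 336 CPM (-2.17 ± 0.46, adjusted p = 0.0291 by edgeR). Hspa8 was at -2.08 ± 0.42 (adjusted p = 0.0291) and Hsp90aa1 at -1.78 ± 0.44 (adjusted p = 0.0449), both by edgeR. None of these 4 genes overlapped between the groups.

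Hspa1a, at -2.13 ± 0.59, had an adjusted p of 0.0619, and the pair, at -2.27 ± 0.60 (4.83-fold lower), one of 0.0566 by edgeR. Hspd1 (-1.89 ± 0.50), Dnajb1 (-1.48 ± 0.49), Hspa1b (-2.38 ± 0.74), Hsph1 (-2.04 ± 0.87) and Hspe1 (-0.86 ± 0.51) did not pass either. Hsph1 was at 8.74, 1.57 and 38.6 CPM in Ezh2 ECKO, the widest spread of the 10 there in proportion to its level. In all, 4 of 10 genes fell, where 1.46% of all genes were called, and 7 of 10 were lower without overlap, as were 15.3% of all genes. Because the MCAO libraries took part in the choice, the distance between these shares is not independent evidence. The median of the 10 was -2.06 against 0.17 for all genes tested (0.36 with RLE scaling). Relative to the TMM median, Hspb1 stood at -4.10, Hsp90ab1 at -2.35 and Hspa8 at -2.26.

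The count of 4 rested on single libraries. Without MCAO ipsilateral replicate 1, MCAO ipsilateral replicate 2, Ezh2 ECKO replicate 2 or Ezh2 ECKO replicate 3, edgeR called 0 of the 10. Without MCAO ipsilateral replicate 3 it called 6, and DESeq2 called 7 with all libraries. With the level of the smell and pheromone receptor genes as a covariate it called 0. The sum of the red cell genes was also lower in Ezh2 ECKO (71.0 to 671 CPM) than in MCAO ipsilateral (38270 to 65450 CPM), and its part was not tested.

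Against sham ipsilateral the Ezh2 ECKO libraries were near the sham level. The pair was at 45.9 ± 16.6 CPM against 32.7 ± 6.14 CPM (SD, n = 3 each), a log2 fold change of 0.49 (95% interval -0.65 to 1.62). Hspa8 was at -0.27 (-1.05 to 0.52) and Hsp90aa1 at -0.16 (-0.995 to 0.67). Hspb1, at -1.43 ± 0.67, was the 1 gene of 10 with an unadjusted p under 0.05, against 6.52% of all genes. None of the 10 was called by edgeR, DESeq2 or limma voom, against 0.041% of all genes by edgeR. All 10 overlapped between these groups. The intervals do not show that the levels were the same.

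The order of the group means of the pair was Hdac2 ECKO (472 ± 244 CPM), MCAO ipsilateral (222 ± 136), MCAO contralateral (205 ± 171), Ezh2 ECKO (45.9 ± 16.6), sham ipsilateral (32.7 ± 6.14) and sham contralateral (27.7 ± 4.39; SD, n = 3 each). Every 2 neighbouring groups in that order overlapped. The lowest Hdac2 ECKO library was below the highest MCAO ipsilateral library, and the lowest MCAO contralateral library was below the highest Ezh2 ECKO library. Hspa8 had another order, led by MCAO ipsilateral (2429 ± 1384 CPM) and MCAO contralateral (2014 ± 909), followed by Hdac2 ECKO (1018 ± 248). Hspb1 had Hdac2 ECKO (465 ± 207 CPM) behind sham contralateral (519 ± 338).

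Other chaperone genes were taken from lists chosen with earlier results of these data known, so counts from these lists are not independent evidence. Of the 16 other Hsp90 genes and Hsp90 co-chaperones, 0 were called in Hdac2 ECKO against Ezh2 ECKO by edgeR (0.123% of all genes). At an unadjusted p under 0.05 there was 1 (11.2% of all genes). In Ezh2 ECKO against MCAO ipsilateral, where 1.46% of all genes were called, 2 fell. These were Stip1, which links Hsp70 to Hsp90, and Ahsa1, which activates the Hsp90 ATPase. Stip1 was at 4.84 to 18.3 CPM in Ezh2 ECKO and 32.4 to 227 CPM in MCAO ipsilateral (log2 fold change -3.55 ± 0.71, adjusted p = 0.0291 by edgeR). Ahsa1 was at 10.6 to 23.9 CPM and 36.8 to 146 CPM in these groups (-2.50 ± 0.61, adjusted p = 0.0434 by edgeR). Both were low in Hdac2 ECKO as well, with Stip1 at 4.89 to 17.4 CPM and Ahsa1 at 10.9 to 21.5 CPM, log2 differences of -3.19 ± 0.70 and -2.72 ± 0.61 from MCAO ipsilateral that did not pass (adjusted p = 0.182 and 0.215 by edgeR).

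Of 17 other targets of heat shock factor 1, which include Stip1 and Ahsa1, 2 fell in Ezh2 ECKO against MCAO ipsilateral (1.46% of all genes called). At an unadjusted p under 0.05, 10 had a lower value (10.7% of all genes), and the median log2 fold change was -1.14. The same 1.46% stands beside the counts of the lists that follow for this comparison. Of 10 nucleotide exchange factors, 1 fell: Hspbp1, which releases nucleotide from Hsp70, at 0.216 to 0.895 CPM in Ezh2 ECKO and 7.22 to 19.5 CPM in MCAO ipsilateral (-4.62 ± 1.03, adjusted p = 0.0356 by edgeR). Of 14 subunits of the chaperonin TRiC and of prefoldin, which fold actin and tubulin, 1 fell, Cct7 (-1.90 ± 0.48, adjusted p = 0.0493 by edgeR). Of 18 endoplasmic reticulum stress genes, 1 fell, Xbp1, a transcription factor of the unfolded protein response (-2.02 ± 0.45, adjusted p = 0.0356 by edgeR).

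None of the 11 other Hsp70 and Hsp110 genes, 16 other J-domain genes, 12 genes of mitochondrial protein quality control, 5 heat shock factors or the 6 tested of 9 other small heat shock genes was called in Ezh2 ECKO against MCAO ipsilateral by edgeR. At an unadjusted p under 0.05, 1, 1, 1, 1 and 4 of them passed, in that order, against 19.2% of all genes. The heat shock factor and 1 of the 4 small heat shock genes were higher and the others lower. Their median log2 fold changes were -0.36, -0.29, -0.77, -0.46 and -2.93. Hsf1, the gene of heat shock factor 1, was at -0.996 ± 0.69 there and at -0.32 ± 0.68 in Hdac2 ECKO against Ezh2 ECKO. The endoplasmic Hsp70 gene Hspa5 was at -0.97 ± 0.31 and 0.87 ± 0.31 in the same comparisons (adjusted p = 0.0973 and 0.289 by edgeR).

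In Hdac2 ECKO against Ezh2 ECKO, edgeR called 0 genes of these 10 chaperone lists, against 0.123% of all genes. At an unadjusted p under 0.05, which 11.2% of all genes had, it found 4 of the 17 other heat shock factor 1 targets, 3 of the 18 endoplasmic reticulum stress genes, 3 of the 6 small heat shock genes and 2 of the 11 other Hsp70 and Hsp110 genes, all higher in Hdac2 ECKO. The 16 other J-domain genes had 2 higher and 1 lower. The Hsp90 genes and co-chaperones, the nucleotide exchange factors and the mitochondrial genes had 1 higher each, and the heat shock factors and the subunits of TRiC and prefoldin 0. The median log2 fold change ran from -0.32 in the heat shock factors to 1.81 in the small heat shock genes, with the J-domain genes at -0.19 and the Hsp90 genes and co-chaperones at -0.14, against -0.15 over all genes tested. In Hdac2 ECKO against MCAO ipsilateral, edgeR called 0 genes of the chaperone lists and 2 immediate early genes (0.0117% of all genes). These were the nuclear receptor genes Nr4a1 (2.15 ± 0.33, adjusted p = 0.0147 by edgeR) and Nr4a2 (2.85 ± 0.41, adjusted p = 0.0109 by edgeR). Of the same 22 immediate early genes, 1 fell in Ezh2 ECKO against MCAO ipsilateral (1.46% of all genes called), Ier3 (-1.76 ± 0.44, adjusted p = 0.0480 by edgeR). In that comparison 13 of the 22 had a positive value and the median was 0.37. At an unadjusted p under 0.05 there were 8 higher and 3 lower, against 19.2% of all genes.

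Among the 7804 genes whose mean was 10 CPM or more, those whose log2 CPM most resembled that of the Hspa1 pair over the 18 libraries with group means removed were Bcar3 (r = 0.93), Tsc22d3 (0.91), Lrrc8a (0.90), Gm20481 (0.88) and Cd59a (0.87). Gm20481 is annotated on the plus strand at chr17:34969912-34972136, and all of its 2225 bases lie inside Hspa1a on the opposite strand. It had between 13.8 and 48.4 counts per 100 counts of Hspa1a in the 18 libraries, with a median of 29.8. Without a stated strand setting, reads of the pair and of Gm20481 cannot be told apart. With the group means kept, r with the pair was 0.15 for Bcar3, 0.365 for Tsc22d3, 0.58 for Lrrc8a, 0.96 for Gm20481 and 0.73 for Cd59a. The r values are descriptions over libraries that share depth and scaling.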

How the data were processed

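The deposited table gives the authors' values per gene, which its name calls normalized. They were whole numbers with totals that differ between libraries, and 77.3% to 89.4% of the low counts in a library were even, so the deposited values were treated as unscaled counts of both mates. Per the submitters' processing notes, FastQC, cutadapt, STAR, featureCounts, DESeq2 and mm10 were used; the strand setting is not given in the sources used here. Libraries were made with SMART-Seq v4 PLUS, per the labels' protocols.

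The 10 genes, the gene lists and the tests were chosen with earlier results of these data known. Genes with 10 or more counts in 3 or more of 18 libraries were fitted in edgeR 4.0.16 (R 4.3.3), with TMM scaling and quasi-likelihood F tests on 6 group means, and adjusted by Benjamini-Hochberg over 17094 genes. The summed pair replaced its 2 genes in a second fit of 17093 genes. The SE is the log2 fold change divided by the square root of F, and 95% intervals are 1.96 SE either side. Levels are CPM as mean ± SD. Alternatives were DESeq2 1.42.0, limma 3.58.1 (voom with sample weights), RLE scaling, no filter, only the groups compared, a replicate block, a background covariate and each library left out. A floor of 3 counts was at most 0.101 CPM and no chaperone gene was near it. The named genes were the 10 members, up to 3 called genes of each list with the smallest adjusted p, Hdac2 and Ezh2 as label checks, and the 5 genes most like the pair. Hsf1 and Hspa5 were named after their values were seen. No column of sample values lacked a sample.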

Additional observations from a re-analysis of the deposited data

Results flagged for a closer look

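The deletion groups, which had the same occlusion and were compared with the same MCAO ipsilateral libraries, differed from each other in a direct test of Hspa1a and of the Hspa1 pair. The difference was 3.31 on the log2 scale for Hspa1a and 3.36 for the pair, higher in Hdac2 ECKO in 3 of 3 libraries against 3 of 3 (adjusted p = 0.030 and 0.0306, edgeR's quasi-likelihood test with Benjamini-Hochberg adjustment over all genes). The pair passed in 8 of 15 alternatives, with an adjusted p between 4.1e-05 and 0.145. Red cell genes (49330 to 297900 CPM in Hdac2 ECKO, 71.0 to 671 CPM in Ezh2 ECKO) and immediate early genes (5638 to 8095 CPM and 3479 to 5576 CPM) differed between the same libraries, and their part was not tested.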

How the results depend on the processing

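Labels did not state that replicate numbers mark shared mice. Correlations across sides were 0.37, 0.35 and -0.12 for same-numbered sham libraries and 0.28, 0.36 and 0.04 for same-numbered MCAO libraries. Differently numbered libraries ran from -0.50 to 0.35 in sham and from -0.36 to 0.21 in MCAO. These values do not settle whether the sides were paired. With a replicate block, edgeR called 9 genes in Hdac2 ECKO against Ezh2 ECKO, 12 in Ezh2 ECKO against MCAO ipsilateral and 4 in MCAO against sham over both sides, and 0 chaperone genes in the first and second of these, where the Hspa1 pair had a log2 fold change of 3.16 (adjusted p = 0.0747) in the first. The cause of these and the following changes was not tested.

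The number of all genes called at an adjusted p under 0.05 depended on the tool and the libraries. For Hdac2 ECKO against Ezh2 ECKO (21 genes) it was 659 with DESeq2, 38 without the filter, 54 with the background covariate, 4 with voom, 115 without the 2 libraries of highest background, and 9 to 73 when single libraries were left out. For Hdac2 ECKO against MCAO ipsilateral (2 genes) it was 4 with RLE scaling, 244 with DESeq2, 10 with the covariate, 32 with voom, 0 with only the groups compared, 22 without both MCAO libraries numbered 3, 62 without the 2 libraries of highest background, and 0 to 18 with single libraries left out. For Ezh2 ECKO against MCAO ipsilateral (250 genes) it was 1642 with DESeq2, 13 with the covariate, 377 with voom, 485 with only the groups compared, 1000 without the 2 libraries of highest background, and 5 to 298 with single libraries left out. For Hdac2 ECKO against sham ipsilateral (0 genes) it was 2 with RLE scaling, 246 with DESeq2, 1 without the filter, 6 with the covariate, 266 with voom, 8 with only the groups compared, 3 without the MCAO libraries numbered 3 and 45 without the 2 libraries of highest background. For Ezh2 ECKO against sham ipsilateral (7 genes) it was 189 with DESeq2, 12 with the covariate, 11 with voom, 26 without the 2 libraries of highest background, and 3 to 15 with single libraries left out. For MCAO against sham over both sides (26 genes) it was 40 with RLE scaling, 337 with DESeq2, 99 with the covariate, 2199 with voom, 86 without the MCAO libraries numbered 3, 498 without the 2 libraries of highest background, and 0 to 266 with single libraries left out. Ipsilaterally (0 genes) it was 69 with DESeq2, 2 without the filter, 1 with the covariate, 1273 with voom, 74 with only the groups compared, 11 without the MCAO libraries numbered 3 and 13 without the 2 of highest background. Contralaterally (0 genes) it was 26 with DESeq2, 7 with voom, 4 and 1 without those libraries, and 0 to 1 with single libraries left out. Between sides, DESeq2 called 6 genes in MCAO and 6 in sham mice, and voom 1 in sham mice.

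Of the 10 chaperone genes, 1 was called between the deletions, and 2 with DESeq2, without the filter, with only the groups compared and without the MCAO libraries numbered 3, 0 with voom, and 0 to 1 with single libraries left out. In Ezh2 ECKO against MCAO ipsilateral (4 called) 7 were called with DESeq2 and without the MCAO libraries numbered 3, 0 with the covariate, and 0 to 6 with single libraries left out. In Hdac2 ECKO against sham ipsilateral (0 called) 1 was called with RLE scaling, without the filter and with the covariate, and 2 with DESeq2, voom, only the groups compared, without the MCAO libraries numbered 3 and without the 2 libraries of highest background.

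The pair kept its direction between the deletions in all alternatives, at 3.43 with voom (adjusted p = 0.145), 3.08 without the 2 libraries of highest background (adjusted p = 0.057) and 2.79 to 3.56 with single libraries left out. Against sham, the pair in Hdac2 ECKO passed the threshold at 3.88 with RLE scaling and with DESeq2, 3.87 without the filter, 3.78 with the covariate, 3.89 with voom, 3.84 with only the groups compared, 3.83 without the MCAO libraries numbered 3 and 3.85 without the 2 libraries of highest background. In Ezh2 ECKO against MCAO ipsilateral it passed at -2.11 with DESeq2, -2.16 with only the groups compared and -2.74 without the MCAO libraries numbered 3, and ran from -2.73 to -1.86 with single libraries left out. Between the sides of MCAO mice its sign turned, to -0.052 with RLE scaling, -0.0521 with DESeq2, -0.0721 with the covariate, -0.0265 with only the groups compared, and -0.38 to 0.97 with single libraries left out.

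Among single genes, Hspe1 between the deletions turned to -0.13 with the covariate, -0.22 without the 2 libraries of highest background and ran from -0.30 to 0.47 with single libraries left out. Hsph1 turned to 0.34 with voom and ran from -0.67 to 1.55. In Hdac2 ECKO against sham ipsilateral, Hsp90ab1 turned to -0.018 with voom and ran from -0.14 to 0.28, Hsph1 ran from -0.64 to 0.0233 and Hspd1 from -0.0255 to 0.39. Leaving out the MCAO libraries numbered 3 or the 2 libraries of highest background was chosen after seeing the data. Depth limited none of the 10 genes, whose lowest level, 1.57 CPM of Hsph1, was above the floor of 0.0854 CPM for 3 counts in that library. With 3 libraries a group and a common biological coefficient of variation of 0.774, smaller differences may not have been detectable.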

Other observations

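Hspa1b took 82.7% of the counts of the Hspa1 pair in MCAO contralateral replicate 1 and 26.5% in sham contralateral replicate 1, the ends of the range over the 18 libraries. In MCAO contralateral replicate 3 the pair stood at 2.72 counts per 100 counts of Hspa8, below all 6 sham libraries, although Hspa8 itself was at 1483 CPM there and above all 6. In the same library Dnajb1 was at 109 CPM, the highest of all 18, and Hsph1 at 8.23 CPM, below all 6 sham libraries.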
